A study of Mus musculus with 3 samples.

Results

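The ion channel genes described here were the protein-coding genes whose symbol begins with Kcn, Scn and a digit, Cacn, Hcn and a digit, Clcn, or Trpc, Trpm or Trpv and a digit. These prefixes name the potassium, sodium and calcium channels, the pacemaker channels, the ClC chloride channels and transporters, and the TRP channels, together with their accessory subunits. The rule gave 169 of the 56748 genes in the count table (169 of 21970 protein-coding genes) and reads gene names and biotype only. Of these, 167 encode channels or channel subunits, while Trpc4ap and Trpc5os match the pattern without being channels. Their mRNA was measured by RNAseq in adult cardiomyocytes (ACMs) from the hearts of wild-type (C57/Bl6 in the study's methods) mice aged 8 to 10 weeks. After plating on laminin, the cells were held for 16 h in serum-free medium with 0.1% BSA, insulin-transferrin-selenium, lipids and butanedione monoxime, a contraction inhibitor, and all 3 groups shared these conditions. The groups were vehicle, 10 ng/mL human IL-6 and 10 ng/mL mouse oncostatin-M (OSM), and RNA was pooled before sequencing, so that each group was 1 library. How many mice or cultures went into a pool is not given in the sources used here.

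Ion channels set the membrane potential of the cardiomyocyte and shape its action potential. Sodium current starts the upstroke, calcium current holds the plateau and triggers contraction, and several potassium currents end it, while inward rectifiers hold the resting potential. Most channels are complexes in which pore subunits are joined by accessory subunits that alter trafficking and gating. OSM and IL-6 are cytokines of the same family that signal through the shared receptor subunit gp130 and JAK kinases to STAT3. The comparison with OSM asks which channel genes were altered by that cytokine, and the IL-6 library gives the same reading for a related cytokine.

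The libraries held 24939980 counts with vehicle, 26362446 with IL-6 and 30773001 with OSM. With 1 library per group there is no replicate error and no P-value, and every difference below is a difference between libraries. Fold changes are ratios of TMM-scaled counts, given on the log2 scale, and the intervals beside them are 95% exact (Clopper-Pearson) intervals that cover counting error only. A gene was compared when it had at least 10 counts over a pair of libraries, and was called higher or lower (upregulated or downregulated) when the whole interval lay beyond 2-fold. Levels are fpkm as the authors deposited them, that is per length and per library size, and levels of different genes are compared on that scale only. Of the cardiomyocyte marker genes, Mb, Tnnt2, Actc1, Myl2 and Tnni3 had more fpkm with OSM than with vehicle, and Ryr2, Myh6 and Pln had less. Together these 8 genes summed to 12012 fpkm with vehicle, 12303 with IL-6 and 15595 with OSM. Summed fpkm of the other cell types, in the same order, was 5.62, 5.63 and 6.17 for endothelial markers, 0.664, 0.602 and 0.929 for fibroblast markers, and 13.2, 12.9 and 15.1 for smooth muscle and pericyte markers. The macrophage sum went from 13.8 and 14.3 to 39.9 with OSM, nearly all of it Cd68, whereas Ptprc and C1qa had 0 counts in every library.

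A minority of the ion channel genes reached 1 fpkm in ACMs. With vehicle, 37 of the 169 members reached 1 fpkm, compared with 36 with IL-6 and 34 with OSM. At the other end, 57 members had 0 counts in all 3 libraries, which at these depths allows up to 0.120, 0.114 and 0.0975 CPM (counts scaled to library size) with vehicle, IL-6 and OSM. The silent members included the neuronal sodium channel pores Scn1a, Scn2a and Scn9a, 7 of the 14 Kcnk background potassium channels and 10 of the 21 TRP channels. All member counts together made up 0.193% of the library with vehicle, 0.195% with IL-6 and 0.128% with OSM, and their summed fpkm was 298, 299.5 and 225. The vehicle and IL-6 sums were thus close and the OSM sum was the lowest.

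Among the most abundant members, Trpc4ap, an adaptor of a ubiquitin ligase rather than a channel, was at 24.0 fpkm with vehicle, 23.6 with IL-6 and 23.9 with OSM, and it shares its locus with Myh7b, so that reads of the 2 genes may not be fully separated. Kcnip2, the accessory subunit of the transient outward potassium channel, followed at 19.7, 23.4 and 23.4 fpkm. Kcnj5 stood at 17.8 fpkm with vehicle, Kcnk3 at 17.3, Kcng2 at 16.3, Cacna2d1 at 15.5, Kcnj11 at 13.4, Clcn4 at 13.2 and Clcn7 at 12.7. Potassium, calcium and chloride channel subunits were thus all among the most abundant members.

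**Figure D1:**
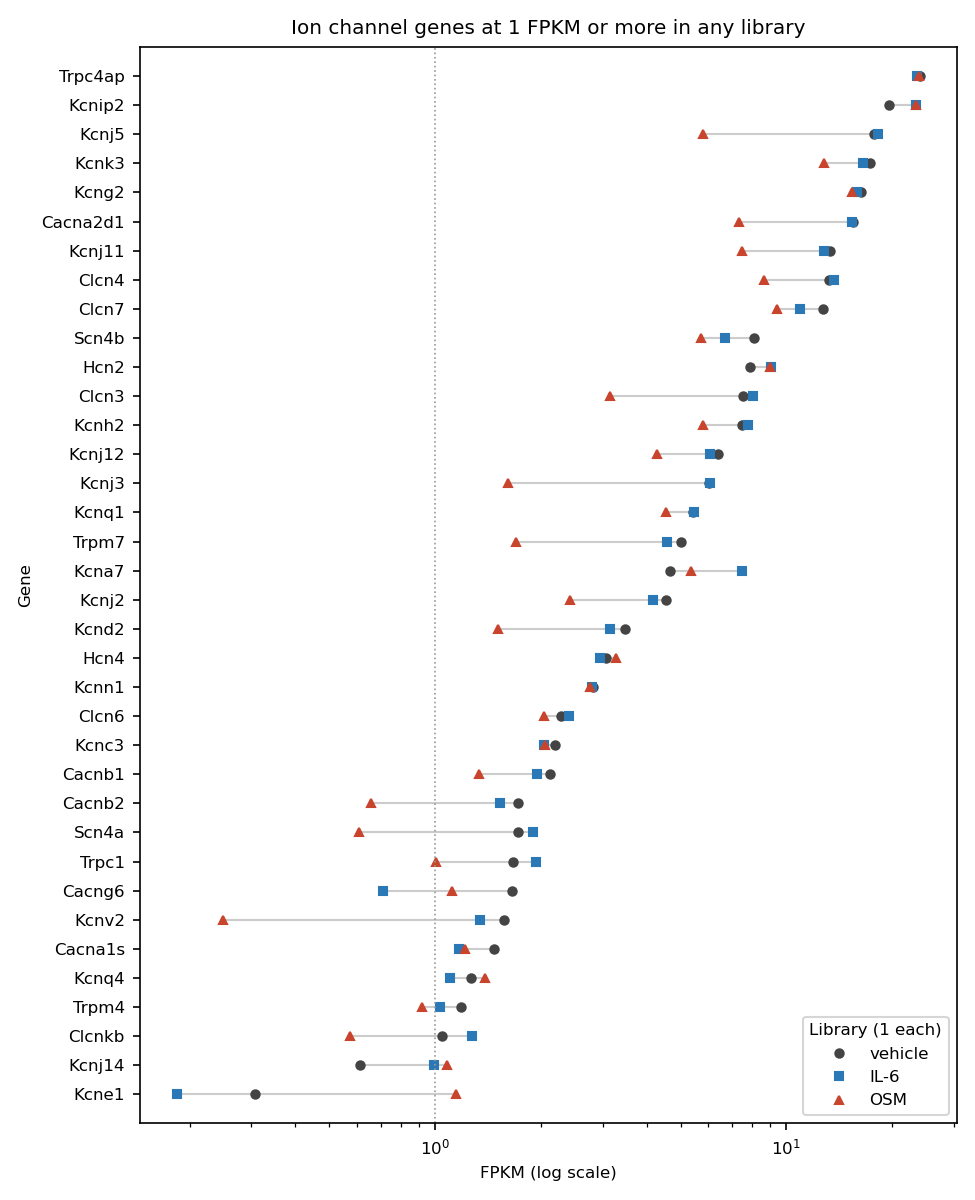
Deposited fpkm (log axis) of the members with at least 1 fpkm in any library, ordered by their level with vehicle and without 3 members not reported singly here, with 1 point per library and no error bars since each group is 1 library. Kcnj5, Kcnj3, Kcnv2 and Trpm7 have an OSM point well to the left of the vehicle and IL-6 points, Kcne1 has one to the right, and for most other members the 3 points lie near each other.

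With OSM, ion channel genes were lower more often than higher. Of the 77 members compared with vehicle, 14 were downregulated (18.2%) and 2 were upregulated (2.60%). Among all 15537 genes compared the same way, 849 were lower (5.46%) and 575 higher (3.70%), and among the 12706 compared protein-coding genes 4.76% were lower and 3.77% higher. These 77 members had a median log2 fold change of -0.48, compared with -0.00 for all compared genes, and 53 members were below 0 and 24 above.

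The better-expressed members were also read on their own, chosen by a mean of at least 1 fpkm over the 3 libraries. There were 36 such members, of which 8 were downregulated with OSM (22.2%) and 0 upregulated, beside 3.52% lower and 2.68% higher among the 10115 compared genes at that level. Their log2 fold change was below 0 in 30 of 36, the whole interval was below 0 in 25 and above 0 in 3, and the median was -0.52 where that of all genes at that level was 0.05. This level was set after the data had been seen. It rests on the libraries compared, so the choice is not independent of the fold changes. Kcnv2, Scn4a and Cacnb2, all among the downregulated members, reached it although they were below 1 fpkm with OSM. Kcne1 lies below it although it was above 1 fpkm with OSM. The 8 were Kcnj3, Kcnj5, Kcnv2, Scn4a, Cacna2d1, Cacnb2, Clcn3 and Trpm7. If the libraries are assumed to vary with a biological coefficient of variation of 0.4, none of the 14 downregulated members is called, whereas with 0.2 the count is 15.

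**Figure D2:**
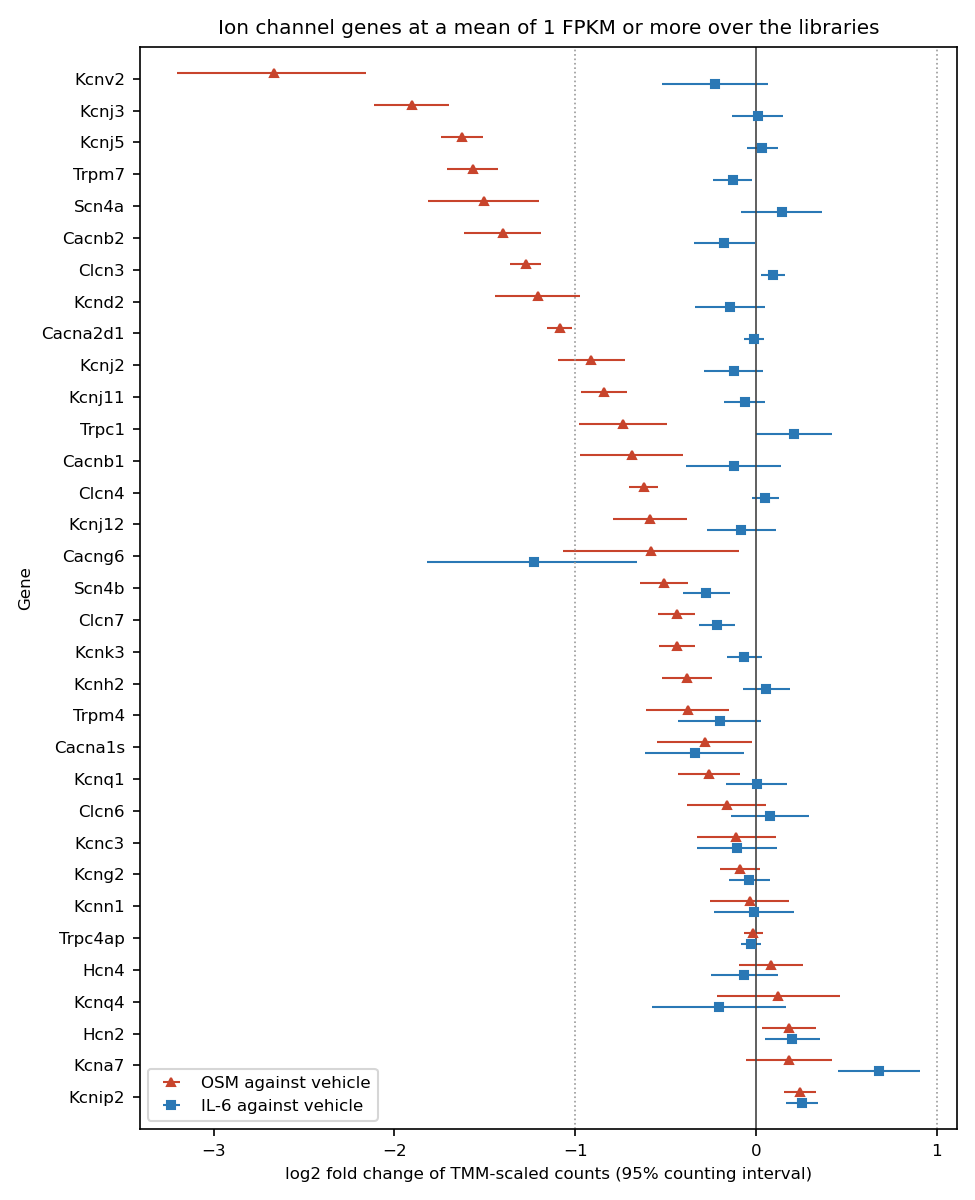
Log2 fold change of OSM against vehicle and of IL-6 against vehicle for members with a mean of at least 1 fpkm over the 3 libraries, ordered by the OSM value and without 3 not reported singly here, with 95% counting intervals as bars and dotted lines at 2-fold. The 8 downregulated members have their OSM interval wholly left of the line and IL-6 values between -0.23 and 0.14.

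Of the 8 compared inward rectifier potassium channels, 2 were downregulated with OSM, Kcnj3 and Kcnj5. Kcnj3 and Kcnj5 encode the subunits that assemble into the acetylcholine-activated potassium channel, which slows the heart under vagal tone and is most abundant in atria. Kcnj3 (chr2:55325982-55488157, plus strand, GRCm39) had 795 counts with vehicle, 858 with IL-6 and 252 with OSM, or 6.03, 6.07 and 1.62 fpkm. It was 3.75-fold lower with OSM than with vehicle (log2 -1.91, interval -2.12 to -1.70). Kcnj5 (chr9:32226003-32255646, minus strand, GRCm39) had 2109, 2316 and 811 counts, or 17.8, 18.2 and 5.80 fpkm, and was 3.09-fold lower (log2 -1.63, interval -1.74 to -1.51). Both genes were thus alike with vehicle and IL-6 and low with OSM. Kcnj5 exceeded Kcnj3 in fpkm by a ratio of 2.95 with vehicle (2.72 to 3.21), 3.00 with IL-6 and 3.58 with OSM (3.11 to 4.14), so that the ratio's counting intervals with vehicle and OSM met. The 4 atrial marker genes summed to 18.2 fpkm with vehicle, 21.2 with IL-6 and 28.2 with OSM. Myl7 had 11.9, 15.7 and 21.2 fpkm, Myl4 had 2.64, 2.89 and 3.69, and Nr2f2 was scarce at 0.0550, 0.0128 and 0.101, while Sln was highest with vehicle at 3.54, 2.60 and 3.20. The part of atrial cells in the Kcnj3 and Kcnj5 values was not tested.

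The 250 bases before the RefSeq start site of both subunits are shown because these genes decreased together. They come from GRCm38.p6, at chr2:55435720-55435969 on the plus strand for Kcnj3 and chr9:32344345-32344594 on the minus strand for Kcnj5, and are written 5′ to 3′ with matches to TTTAAA in capitals.
Kcnj3: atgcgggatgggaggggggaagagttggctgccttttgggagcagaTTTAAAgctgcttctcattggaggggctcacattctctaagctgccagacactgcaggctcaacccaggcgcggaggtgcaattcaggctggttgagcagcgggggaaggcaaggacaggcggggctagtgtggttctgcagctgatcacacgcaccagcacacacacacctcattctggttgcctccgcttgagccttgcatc
Kcnj5: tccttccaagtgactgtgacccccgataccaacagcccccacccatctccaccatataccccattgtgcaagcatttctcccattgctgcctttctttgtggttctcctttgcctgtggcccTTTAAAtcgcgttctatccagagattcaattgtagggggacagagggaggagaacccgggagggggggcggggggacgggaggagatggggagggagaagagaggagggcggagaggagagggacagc
Both windows were rich in G and C (58.4% and 58.0%) and held TTTAAA once, starting 204 bases before the start in Kcnj3 and 128 bases before it in Kcnj5. This motif, which reads the same on both strands and is counted below with both genes included, was chosen after the sequences had been seen. In windows of 300 bases (250 before and 50 after each start), it was found in 13.2% of 32851 windows, in 14.7% of the 170 windows of members and in 6 of the 17 windows of downregulated members, which belonged to Kcnj3, Kcnj5, Cacnb2, Clcn3, Kcnq5 and Scn10a. The STAT consensus TTCNNNGAA, also a palindrome, was in 8.30% of all windows, in 9.41% of member windows and in 0 of the 17. AGATAA, searched on both strands as a GATA-type motif, was in 11.2% of all windows, 4.12% of member windows and 0 of the 17. Windows were found for 128 members, 12 of them downregulated, and a gene may have several.

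The other 6 compared inward rectifiers were not called, and 3 of them were below 0 and 3 above. Kcnj2, the main pore of the resting inward rectifier current, had 625 counts with vehicle, 615 with IL-6 and 395 with OSM (log2 -0.91, interval -1.09 to -0.73 for OSM against vehicle). Its partner Kcnj12 had 445, 451 and 352 counts (log2 -0.59, interval -0.79 to -0.38). By fpkm Kcnj12 was the more abundant, with a ratio of Kcnj2 to Kcnj12 of 0.709 with vehicle (0.627 to 0.803), 0.689 with IL-6 and 0.567 with OSM (0.490 to 0.656). Kcnj11, the pore of the ATP-sensitive channel that couples excitability to metabolism, had 1242, 1275 and 824 counts (log2 -0.84, interval -0.97 to -0.71). None of these 3 passed the 2-fold rule, although each interval lay below 0. The 3 above 0 were scarce. Kcnj14 had 42, 73 and 88 counts (log2 0.82, interval 0.27 to 1.39), Kcnj4 had 20, 37 and 49 (log2 1.05, interval 0.27 to 1.87), and Kcnj15 had 0, 2 and 10. Over the class, 8 of 15 members were compared, 2 were lower and the median log2 fold change was -0.71.

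Among the voltage-gated potassium channel pores, 17 of 40 members were compared, 4 were lower, none was higher and the median was -0.26. Kcnv2, a silent subunit that modifies delayed rectifier channels, changed most among members with at least 100 counts. It lies at chr19:27299988-27314579 on the plus strand (GRCm39). Its counts were 203 with vehicle, 186 with IL-6 and 38 with OSM, or 1.57, 1.34 and 0.249 fpkm, which is 6.34-fold lower with OSM (log2 -2.66, interval -3.20 to -2.16). The remaining downregulated pores were scarce: Kcna4, a pore of the slow transient outward current, had 35, 64 and 6 counts, Kcnc1 had 26, 12 and 2, and Kcnq5 had 61, 84 and 21. Kcnq5 shares its locus and strand with the pseudogene Gm7658, which had 94, 90 and 135 counts.

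Kcnd2, a pore of the fast transient outward current that repolarises mouse ventricle early, had 453 counts with vehicle, 440 with IL-6 and 233 with OSM (log2 -1.21, interval -1.44 to -0.98). It fell just short of the rule and was called when total counts were used for scaling. Its accessory subunit Kcnip2 instead had 1827, 2333 and 2568 counts (log2 0.24, interval 0.16 to 0.33). The fpkm ratio of Kcnip2 to Kcnd2 was accordingly 5.65 with vehicle (5.10 to 6.28), 7.43 with IL-6 and 15.5 with OSM (13.5 to 17.7), with intervals that did not overlap between vehicle and OSM. Kcnh2, the pore of the rapid delayed rectifier, had 918, 1024 and 837 counts (log2 -0.38, interval -0.52 to -0.24). Kcng2, a silent subunit and the most abundant member of the class, was nearly level at 1231, 1286 and 1376 counts (log2 -0.09, interval -0.20 to 0.03).

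Kcne1 was the only member with at least 100 counts over vehicle and OSM that was called higher with OSM. It encodes the small subunit that joins the Kcnq1 pore to form the slow delayed rectifier current, and lies at chr16:92142870-92156356 on the minus strand (GRCm39). Kcne1 had 25 counts with vehicle, 16 with IL-6 and 110 with OSM, or 0.307, 0.184 and 1.15 fpkm. That is 3.71-fold higher with OSM than with vehicle (log2 1.89, interval 1.25 to 2.58). Kcnq1 itself had 562, 604 and 557 counts (log2 -0.26, interval -0.43 to -0.09), and its locus also holds Kcnq1ot1, with 49, 41 and 26 counts. The fpkm ratio of Kcnq1 to Kcne1 was 17.7 with vehicle (11.8 to 27.5), 29.6 with IL-6 and 3.98 with OSM (3.24 to 4.92), so that the accessory subunit was closest to the pore in the OSM library. Of the 17 potassium channel accessory subunits 5 were compared, and Kcne1 was the only one called.

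None of the compared background and calcium-activated potassium channels was called against vehicle. Kcnk3, an acid-sensitive background channel and the only Kcnk member at 1 fpkm, had 1737, 1780 and 1526 counts (log2 -0.43, interval -0.53 to -0.33), and overlaps the annotated gene Gm9899. Kcnn1, a small-conductance calcium-activated channel, had 327, 348 and 379 counts (log2 -0.03, interval -0.25 to 0.18), whereas its relative Kcnn2 had 118, 140 and 52 (log2 -1.43). Kcnn2 was not called against vehicle but was lower with OSM than with IL-6.

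Of the 4 compared sodium channel pores, 2 were lower with OSM. Scn4a (chr11:106209418-106244114, minus strand, GRCm39), the pore of skeletal muscle sodium channels, had 306 counts with vehicle, 362 with IL-6 and 128 with OSM, or 1.72, 1.90 and 0.609 fpkm, and was lower (log2 -1.50, interval -1.81 to -1.20). Scn10a, best known from sensory neurons, had 43, 32 and 6 counts and was lower as well (log2 -3.09). None of the 3 compared beta subunits, which adjust gating and adhesion, was called with OSM against vehicle. Scn4b among them had 1018, 902 and 850 counts (log2 -0.51, interval -0.64 to -0.37).

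Accessory calcium channel subunits were lower in 3 of 9 compared members. Cacna2d1 (chr5:16139689-16579509, plus strand, GRCm39), the subunit that carries the pore to the cell surface, had 4875 counts with vehicle, 5191 with IL-6 and 2728 with OSM, or 15.5, 15.4 and 7.36 fpkm. It was downregulated with OSM (log2 -1.09, interval -1.15 to -1.02). Cacnb2 (chr2:14607899-14992719, plus strand, GRCm39), the main cardiac beta subunit, had 578, 549 and 260 counts and was lower (log2 -1.40, interval -1.62 to -1.19). The beta subunit Cacnb1, better known from skeletal muscle, had 244, 240 and 180 counts (log2 -0.69, interval -0.97 to -0.40) and was not called. Cacnb4 had 12 counts with vehicle and 0 in both other libraries, which is 4.75-fold lower with OSM when the 0 is put at the floor of 3 counts. Among the compared calcium channel pores 0 of 4 were called with OSM against vehicle, although their median log2 fold change was -0.84 and the lowest -1.58. Cacna1s, the pore nearest to 0, had 244, 207 and 238 counts (log2 -0.28, interval -0.55 to -0.02).

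The HCN pacemaker channels, which carry the depolarising current of pacemaker cells, did not move together. Hcn2 had 636 counts with vehicle, 784 with IL-6 and 857 with OSM (log2 0.18, interval 0.03 to 0.33), and Hcn4 had 476, 488 and 599 (log2 0.08, interval -0.09 to 0.26). Hcn3 was lower, at 19, 11 and 1 counts, a ratio of vehicle to OSM of 22.6 with a counting interval from 3.59 to 937. The 5 conduction cell markers summed to 0.594, 0.667 and 0.522 fpkm, and Vsnl1 among them had 0 counts in every library.

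Among the ClC genes, 1 of 8 compared members was called with OSM against vehicle. Clcn3 (chr8:61363423-61436334, minus strand, GRCm39), a chloride-proton exchanger of endosomes, had 3258, 3726 and 1600 counts, or 7.54, 8.05 and 3.14 fpkm, and was lower (log2 -1.27, interval -1.36 to -1.19). Clcn4, its endosomal relative, had 2867, 3185 and 2212 counts (log2 -0.62, interval -0.70 to -0.54), and Clcn7, the exchanger of lysosomes, had 1703, 1574 and 1492 (log2 -0.44, interval -0.54 to -0.34). The 3 genes had their lowest count with OSM.

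In the TRP family, which includes many cation channels gated by chemical and physical stimuli, Trpm7 was downregulated and Trpm1 upregulated among 9 compared members. Trpm7 (chr2:126633485-126718150, minus strand, GRCm39), a magnesium-permeable channel fused to a kinase, had 1433 counts with vehicle, 1405 with IL-6 and 575 with OSM, or 5.01, 4.58 and 1.70 fpkm (log2 -1.56, interval -1.71 to -1.42). Trpm1 had 0, 10 and 12 counts, 3.37-fold higher with OSM when the 0 is put at the floor of 3 counts, and stayed at or below 0.0275 fpkm. Trpc1, a subunit of calcium-permeable channels, had 339, 421 and 242 counts (log2 -0.73, interval -0.98 to -0.49), and Trpm4, a calcium-activated cation channel, had 325, 303 and 297 (log2 -0.38, interval -0.61 to -0.15). Trpm4 overlaps the pseudogene Rpl14-ps1, which had 1063, 1020 and 2056 counts.

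**Figure D3:**
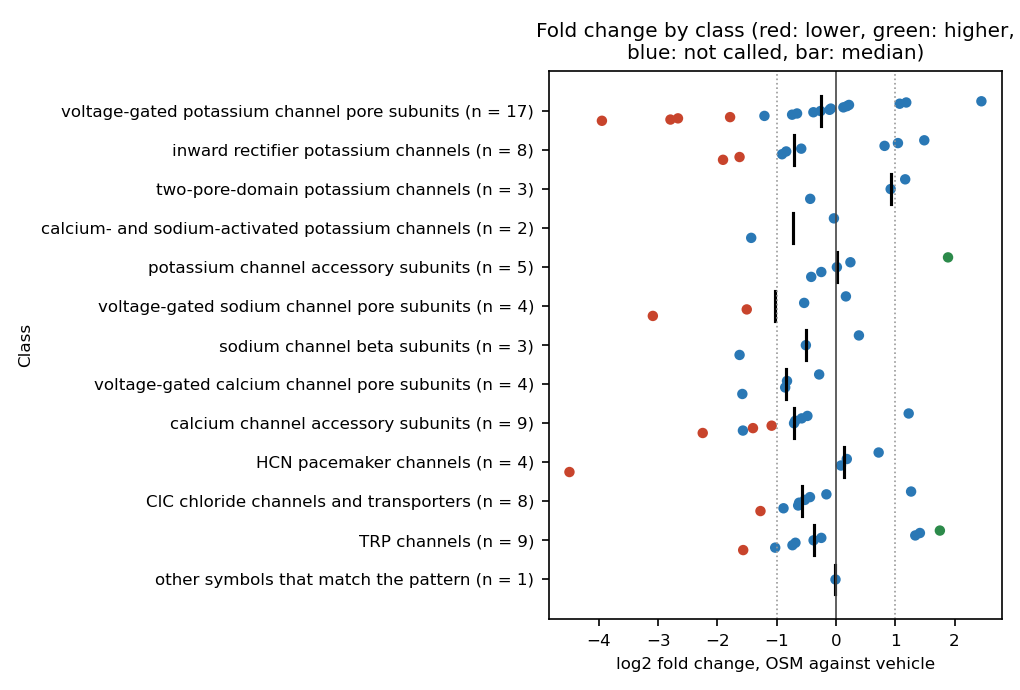
Log2 fold change of OSM against vehicle for the 77 compared members by functional class, with 1 point per gene, a bar at the class median and dotted lines at 2-fold (members with 0 counts in a library are drawn at the floor of 3 counts). Inward rectifiers, sodium channel pores and accessory calcium channel subunits have medians of -0.71, -1.02 and -0.71, the HCN channels have a median of 0.13, and the points of most classes lie on both sides of 0.

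Channel genes are long, and in these libraries the fold change with OSM varied with length, so the members were compared with genes of similar length. The median annotated length was 5461 bases for compared members and 4525.5 bases for compared protein-coding genes. Across 8 equal bins of length, the median log2 fold change of the other protein-coding genes went from 0.46 in the shortest to -0.55 in the longest. Subtracting the median of its own bin from each member left a median difference of -0.31, with 49 members below their bin and 28 above. If other protein-coding genes are weighted to the members' lengths, 6.07% were lower and 3.11% higher. Among the 36 members with a mean of at least 1 fpkm, 28 lay below and 8 above the median of protein-coding genes of that level and similar length, 24 with the whole interval below it and 3 above. Within the longest bin, the 17 members had a median of -0.83 against -0.55 for the other genes.

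Fewer members were called relative to genes of their length. After the length median was subtracted, 8 members were lower (10.4%) against 4.51% of all genes, and 4 were higher (5.19%) against 3.26%. The calls of Kcnq5, Scn4a and Trpm7 were lost although their values stayed beyond 2-fold, at -1.53, -1.25 and -1.02 from genes of their length, since the interval then reached inside 2-fold. Cacnb2, Clcn3 and Cacna2d1 were at -0.85, -0.73 and -0.54 and were not called either, with each interval still below 0. Kcnj3, Kcnj5 and Kcnv2 remained lower, at -1.86, -1.58 and -2.62 from genes of their length, and Kcne1 remained higher at 1.73. The rest of the 8 that stayed lower were Kcna4, Kcnc1, Scn10a, Hcn3 and Cacnb4, each with under 100 counts over the pair. Kcnh3, at 4, 3 and 26 counts, was among those added. Its locus overlaps Mcrs1 on the other strand, which had 940, 1039 and 1971 counts. The downregulated members had a median length of 7827.5 bases against 5428 for the other compared members, and their genes spanned a median of 78789 bases of the genome against 34563. Across genes, Spearman's rho of fold change with length was -0.28 over the compared members and -0.39 over the other protein-coding genes, given as a description since genes of the same libraries are not independent. Why fold change varied with length was not tested.

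**Figure D4:**
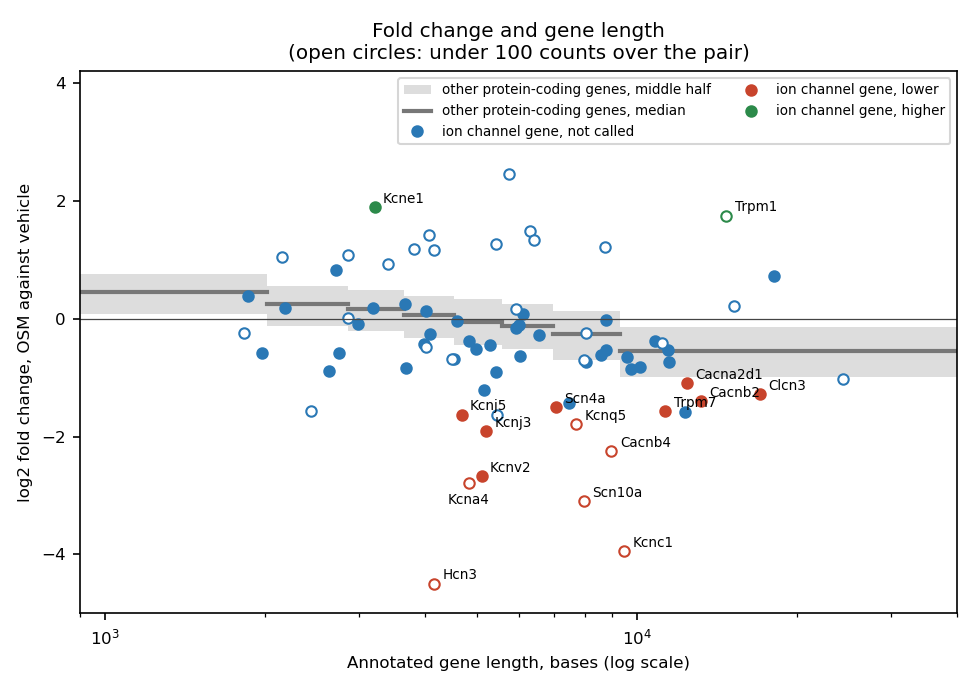
Log2 fold change of OSM against vehicle plotted against annotated gene length in bases (log axis) for the compared members, with the median and interquartile range of other protein-coding genes in 8 length bins and open circles for members under 100 counts over the pair. The bin medians go from 0.46 to -0.55 with length, and Kcnj3, Kcnj5 and Kcnv2 lie far below the median of their bin whereas Cacna2d1 and Clcn3 lie closer to it.

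With IL-6, few ion channel genes differed from vehicle. Of 73 compared members, 3 were higher (4.11%) and 2 lower (2.74%), where 1.77% of the 15472 compared genes were higher and 1.74% lower. Both member shares were thus above those of all genes, on 5 calls. The members' median log2 fold change was -0.02. All 5 were scarce. Clcn1, the chloride channel of skeletal muscle, had 7 counts with vehicle, 74 with IL-6 and 20 with OSM (log2 3.30, interval 2.19 to 4.67 for IL-6 against vehicle). Trpm1 and the calcium channel pore Cacna1e each had 0 counts with vehicle and 10 with IL-6, and Cacna1e had 0 with OSM. The sodium channel beta subunit Scn3b had 26, 2 and 10 counts, and Cacnb4 had 12, 0 and 0. None of these 5 calls was kept when at least 100 counts were required.

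None of the 36 members with a mean of at least 1 fpkm was called with IL-6, and their log2 fold changes ran from -1.23 to 0.68 with a median of -0.04. The ends of that range, named after their values had been seen, were Cacng6, an accessory calcium channel subunit, at 83, 38 and 66 counts (interval -1.82 to -0.66), and Kcna7, a potassium channel pore, at 258, 443 and 348 counts (interval 0.46 to 0.91). The 8 members of that level that were downregulated with OSM had log2 fold changes between -0.23 and 0.14 with IL-6. OSM and IL-6 were both read against the same vehicle library, so these values are not independent of each other.

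OSM was also set against IL-6 directly, which leaves the vehicle library out but shares the OSM library with the first comparison. Of 76 compared members, 15 were lower with OSM (19.7%) and 4 higher (5.26%), where 5.44% of the 15544 compared genes were lower and 4.24% higher. The median log2 fold change was -0.40, and -0.26 after genes of similar length were subtracted. Of the 14 members lower against vehicle, 13 could be compared here and 11 were lower, including all 8 with a mean of at least 1 fpkm. The members that were lower only in this pair were Cacna1d, Cacna1e, Clcn1 and Kcnn2. Kcne1 was higher here as well, and so were Kcna5 and Kcnk6, which had 0 counts with IL-6 and 20 and 16 with OSM, and Kcnh3.

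Other genes that bear on cardiac excitability were read from lists chosen with earlier results of these data known. For each list, the share of all genes compared with OSM against vehicle was 5.46% lower and 3.70% higher. The list of genes behind the named cardiac currents, which consists of members, had 46 of 60 genes compared with OSM against vehicle, with 9 lower, 1 higher and a median log2 fold change of -0.61. A list of 45 channels and channel-like genes outside the pattern, such as calcium release, mechanosensitive, lysosomal and ligand-gated channels, had 37 compared, 4 lower, 1 higher and a median of -0.22, or 0.03 after genes of similar length were subtracted. The lower ones were Ryr2, the calcium release channel of the sarcoplasmic reticulum, at 22606, 23555 and 9264 counts (log2 -1.53, interval -1.57 to -1.50), and Ryr3, Best3 and Pkd1. A list of 44 channel partners, transporters and regulators had 38 compared, 4 lower, 2 higher and a median of -0.25, or -0.11 after length. Rrad, a GTPase that inhibits voltage-gated calcium channels, was higher at 6044 counts with vehicle, 6352 with IL-6 and 36438 with OSM (log2 2.34, interval 2.31 to 2.38), and Cav3, the caveolin of muscle, was higher at 594, 730 and 3083 (log2 2.13, interval 2.00 to 2.26). The lower ones were Abcc9, the sulfonylurea receptor that joins Kcnj11, at 4210, 5145 and 2004 counts (log2 -1.32, interval -1.40 to -1.24), the anchoring proteins Ank2 and Akap9, and the transcription factor Mef2c.

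Markers of neural cells, in which many of these channels are also expressed, were low in every library. Neuron markers summed to 5.79 fpkm with vehicle, 5.59 with IL-6 and 3.33 with OSM, mostly Tubb3, with Snap25, Stmn2, Syt1 and Rbfox3 at 0 counts. Schwann cell markers summed to 0.244, 0.164 and 0.0362 fpkm, with S100b and Sox10 at 0 counts. These sums were lowest with OSM, as were the scarce members Scn10a, Kcnc1 and Kcna4, and their part in those values was not tested. In a pooled culture, fewer cells of a type and less RNA per cell cannot be told apart.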

How the data were processed

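ACMs were treated with vehicle, IL-6 or OSM, RNA was pooled per condition and 1 library each was sequenced as paired reads of 150 bases. Per the study's methods, reads were mapped to GRCm39 and counted per gene with featureCounts. The submitters' processing notes also name fastp, HISAT2 2.2.1, featureCounts 2.0.6 and edgeR 4.0.16. Whether counting used the strand is not given in the sources used here, so values of overlapping and antisense genes are uncertain. The authors deposited whole-number counts without normalization, and FPKM values, which are counts scaled to gene length and library size.

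From the counts, TMM factors were computed for each pair of libraries with edgeR 4.0.16 in R 4.3.3. Genes with at least 10 counts over a pair were compared and a library with 0 counts was put at a floor of 3 counts. A gene was called when its 95% Clopper-Pearson interval lay wholly beyond 2-fold. Intervals and floors cover counting error only, since reads were not tagged by molecule. Gene length was compared in 8 equal-count bins. Promoter sequences were taken from RefSeq (GRCm38.p6), and gene coordinates are those of the deposited table (GRCm39).

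The members and the lists were chosen with earlier results of these data known. The symbol pattern matched 170 genes, of which 1 was left out, and some members enter counts and medians but are not reported singly here. Genes were named where they were called in any pair, were among the 10 highest in FPKM with vehicle, belonged to the list of cardiac currents, or were among the 5 largest fold changes or differences from length in a direction with at least 100 counts. Not every such gene is printed. The alternatives were DESeq2 1.42.0 size factors, total counts, other count minimums, folds and length bins, and edgeR's exact test with the biological coefficient of variation set by assumption. All sample columns were matched to labels.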

Additional observations from a re-analysis of the deposited data

How the results depend on the processing

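Median log2 fold changes of the members kept their direction under every alternative run, from -0.58 to -0.46 for OSM against vehicle and from -0.34 to -0.31 for the difference from genes of similar length, and no result reversed. Counts of called members moved more, given here as lower and higher members for OSM against vehicle (14 and 2 as reported), IL-6 against vehicle (2 and 3) and OSM against IL-6 (15 and 4). The share of all genes called under the same setting follows in brackets. With at least 100 counts over the pair, 47 members were compared in each pair. OSM against vehicle then gave 8 (3.95%) and 1 (2.89%), and IL-6 against vehicle gave 0 (0.0641%) and 0 (0.110%). OSM against IL-6 gave 10 (3.69%) and 1 (2.93%). With the point estimate beyond 2-fold, 20 of 77 were lower (13.2%) and 12 higher (10.0%) with OSM than with vehicle. That setting gave 7 lower (6.61%) and 5 higher (6.72%) of 73 with IL-6. Of 76, 26 were lower (12.8%) and 11 higher (10.0%) with OSM than with IL-6. With the interval beyond 1.5-fold, 20 were lower (12.0%) and 4 higher (8.55%) with OSM than with vehicle. Against IL-6, 25 were lower (11.9%) and 5 higher (8.76%) with OSM. With edgeR's exact test at an assumed biological coefficient of variation of 0.4, every count was 0 (of all genes, 0.0708% were lower and 0.277% higher with OSM than with vehicle), and at 0.2 IL-6 against vehicle gave 1 (0.808%) and 1 (0.724%). With the length trend subtracted, OSM gave 8 lower (4.51%) and 4 higher (3.26%) against vehicle and 8 lower (4.87%) and 6 higher (3.45%) against IL-6. With a mean of at least 1 fpkm over the libraries, a setting chosen after seeing the data, OSM gave 8 lower and 0 higher against vehicle (3.52% and 2.68%) and against IL-6 (3.39% and 2.88%), and IL-6 gave 0 and 0 (0.158% and 0.218%). Total-count scaling added Kcnd2 and Kcnn2 to the members lower with OSM than with vehicle. The causes of these moves were not tested beyond what each setting itself removes. No paired analysis was possible because each group had 1 library, and for the same reason no replicate could be left out.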
